A study of Mus musculus with 4 samples.

Results

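The genes described here encode myelin proteins of the central nervous system and a transcription factor of the cells that make them: Mbp, Mobp, Mal, Cnp, Mag, Mog, Cldn11 and Olig1. They were taken as a list of 8 symbols, without regard to a threshold, and all 8 were found among the 32285 genes of each section's feature table.

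Oligodendrocytes wrap the axons of the brain in myelin, a membrane stacked into tight layers that speeds the nerve impulse. Compact myelin is held together by small basic and membrane proteins, while other proteins sit at the inner face towards the axon, in cytoplasm-filled channels, on the outermost layer or in the junctions that seal the sheath. Myelin fills the fiber tracts, such as the corpus callosum above the hippocampus, is common in the thalamus and deep cortex, and is sparse in the upper layers of cortex and in the cell body layers of the hippocampus.

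The study asked which transcripts differ in the hippocampus while an avoidance memory is kept and not recalled. RNA was captured with 10x Genomics Visium, in which every spot of a slide carries its own barcode and samples a small group of neighboring cells, and each transcript counted is a unique molecular identifier (UMI). There were 4 sections, 1 from each mouse: trained 1, trained 2, untrained 1 and untrained 2. All 4 mice were adult males of the genotype ArcCreERT2::eYFPflx on a C57BL/6 background, 3 to 4 months old; all had 4-hydroxytamoxifen under brief isoflurane before the retention test, and their brains were taken 3 days after that test. Trained mice had learned to avoid a shock zone on a rotating arena (active place avoidance). For untrained mice the shock was off throughout. The Cre of the line, switched on by the drug, is under the promoter of Arc, a gene of active neurons, and cells in which it acted carry eYFP. That label is not a mark of oligodendrocytes, and no group is defined by it below.

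The label calls the tissue hippocampus, but each section was a wider coronal piece of brain. Marker lists that hold none of the 8 genes placed 193, 192, 140 and 172 spots of trained 1, trained 2, untrained 1 and untrained 2 in the CA1, CA3 and dentate gyrus (DG) layers, out of 2865, 3055, 2359 and 2661 spots over tissue. The other spots with a region fell in cortex, thalamus, medial habenula, hypothalamus, a striatal marker group, choroid plexus, ependyma or meninges. A callosal strip was taken as the spots that no marker list placed and that lay between layer 6 of the cortex and CA1. It had 64, 58, 24 and 52 spots. Regions were compared where every section had at least 20 spots, which held for 11 of them. CA3 had 12 spots in untrained 1, so its comparison used the other 3 sections.

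Depth differed between sections. Total UMIs were 7119995 in trained 1, 10330015 in trained 2, 3560294 in untrained 1 and 6581748 in untrained 2, with 1936, 2493, 1048 and 1851 UMIs in the median spot. A count of 0 over a whole section would allow up to 0.421, 0.29, 0.843 and 0.456 UMIs per 1000000 (3 counts of the total). No member was at 0 in any of the 352 combinations of member, region and section, where the lowest count was 2, the median 49 and the highest 5997. Exact 95% binomial (Clopper-Pearson) intervals on a whole-section level reached at most 2.29% above and 2.25% below the value for Mbp, and 12.1% above and 11.1% below it for Mog. They cover counting error alone.

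Trained 2 stands apart from the other 3 sections, so results that rest on it are given with and without it. Its mitochondrial transcripts took 6.83% of UMIs, against 12.2%, 12.1% and 11.6% in trained 1, untrained 1 and untrained 2. In hippocampal layers they took 10.8% in trained 2, the highest there, against 9.62%, 10.5% and 9.67%, and in DG 16.2% against 10.9%, 11.2% and 10.5%. The 4 hemoglobin genes of the blood list summed to 454 UMIs per 1000000 in trained 2, against 816, 742 and 637 in the same order of the others. The part of these differences in the results was not tested.

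Levels are counts per 1000000 (CPM): UMIs of the gene per 1000000 UMIs of the section or region. They are not scaled by transcript length, so the share a gene takes of the member UMIs is a share of captured molecules, and the members are not ranked by expression here. With spots that each hold several cells, fewer oligodendrocytes and less RNA per oligodendrocyte cannot be told apart. The trained and untrained groups have 2 sections each, and an exact permutation test of 2 against 2 cannot go below p = 0.333 (two-sided), so tests come from edgeR's quasi-likelihood F-test on UMI sums, which pools the spread over genes. Its p-values are two-sided and adjusted (Benjamini-Hochberg) over all genes tested, and a gene is called at an adjusted p under 0.05.

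The whole-section levels come first, for compact myelin. Mbp, whose basic protein binds the cytoplasmic faces of compact myelin together, was at 1925 CPM in trained 1, 3368 in trained 2, 2097 in untrained 1 and 2114 in untrained 2. Mobp, which encodes another basic protein of compact myelin, was at 420.1, 962 and 513 in trained 1, trained 2 and untrained 1, and at 507 in untrained 2. Mal, which encodes a membrane proteolipid that helps sort myelin components, was at 179, 357, 228 and 226 in the same order. For each of these genes trained 2 was the highest section, trained 1 the lowest and the untrained sections lay between them and near each other, so the groups overlapped. Trained 2 exceeded the next section 1.59 times for Mbp, 1.88 times for Mobp and 1.57 times for Mal.

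Outside compact myelin, Cnp, which encodes an enzyme of the cytoplasm-filled channels of the sheath, was at 296, 449.9, 292 and 306 CPM in trained 1, trained 2, untrained 1 and untrained 2. Mag, whose adhesion protein lies at the inner membrane facing the axon, was at 164, 271, 137 and 157 in that order. Mog, whose protein is displayed on the outermost layer, was at 77.1, 154, 82.9 and 87.1. Mag was the one member with both trained sections above both untrained sections. Such a separation was seen in 3983 of the 13810 genes tested, 28.8%.

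Cldn11, which encodes the tight junction protein between myelin layers, was at 137, 233, 168 and 176 CPM in trained 1, trained 2, untrained 1 and untrained 2. Olig1, the transcription factor of the oligodendrocyte lineage, was at 135, 199, 131 and 145. Trained 2 was again highest for both. It was the highest section for 8 of 8 members, and the groups overlapped for 7 of 8. The share of all genes with trained 2 highest was not counted. Trained 1 was below both untrained sections for 5 members, between them for 2 and above both for 1, Mag. The summed members came to 3334, 5994, 3648 and 3718, and without mitochondrial transcripts in the total to 3799, 6434, 4149 and 4204. On either scale trained 2 was highest and trained 1 lowest.

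**Figure D1:**
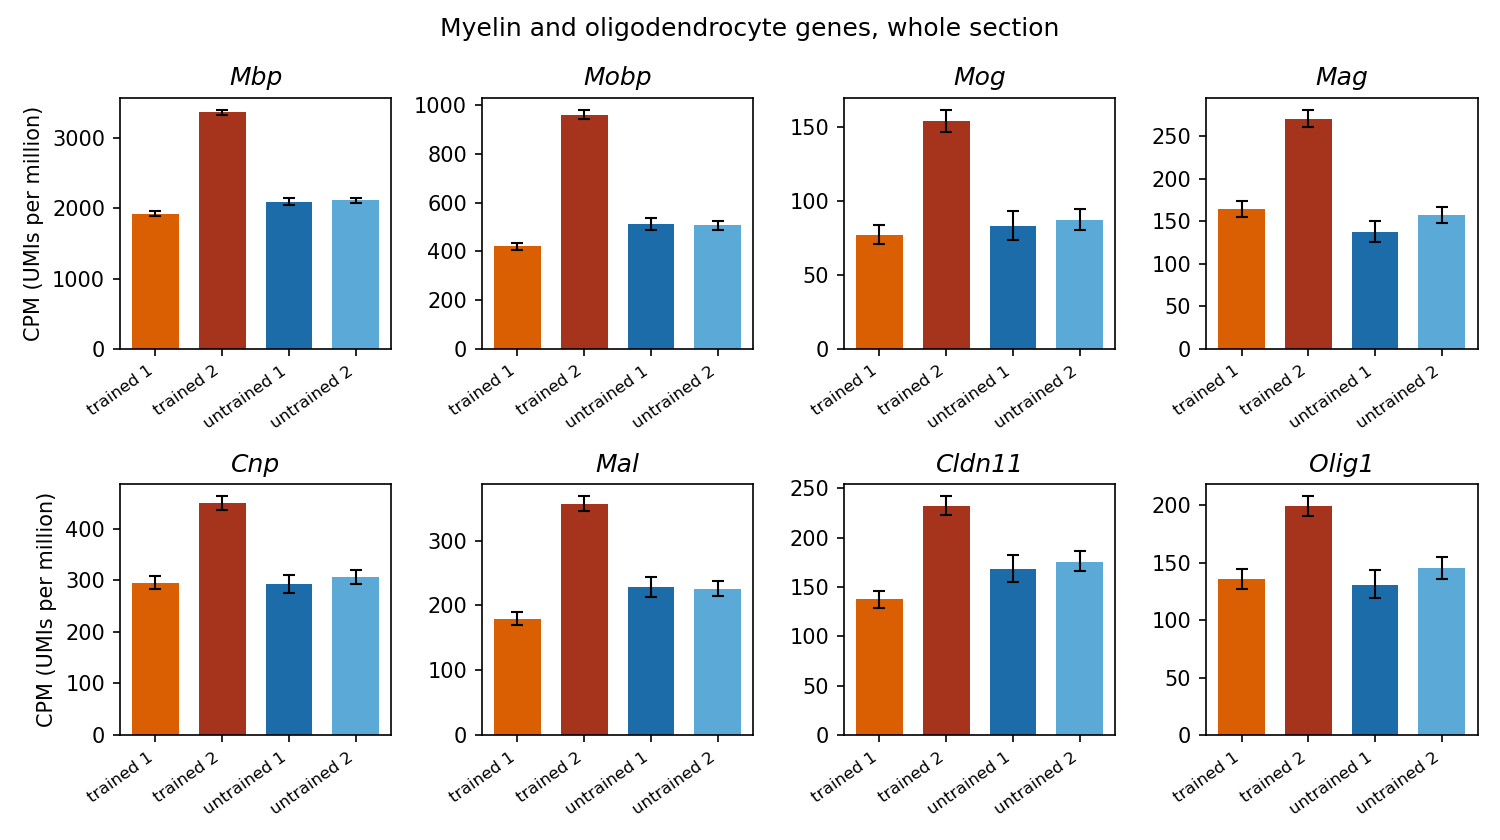
Each panel plots 1 of the 8 members as bars, 1 per section (horizontal axis), with the whole-section level in CPM on the vertical axis from 0 and its exact 95% binomial interval as the error bar. Trained 2 is the highest bar in all 8 panels and trained 1 is below both untrained bars in 5.

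The comparison of trained with untrained mice asks whether the members differ after avoidance learning. In the whole section none of the 8 members was called by edgeR, where 2 of 13810 genes were (0.0145%). At an unadjusted p under 0.05 there was 1 member, beside 1099 genes (7.96%), and DESeq2 called no member and 20 genes. The member was Mag, with a log2 change of 0.47 (standard error 0.18, adjusted p = 0.594). The log2 changes of the others were 0.24 for Mbp, 0.34 for Mobp, 0.15 for Mal, 0.23 for Cnp, 0.35 for Mog, 0.02 for Cldn11 and 0.19 for Olig1. The median over the members was 0.24, against 0.01 over all genes. The 2 genes called, both lower in trained mice and named after their values were seen, were 2900052N01Rik and Phyhip.

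These changes rested on trained 2. Without trained 1, leaving trained 2 against both untrained sections, 6 of 8 members were called higher, beside 2.14% of genes, and their median log2 change was 0.53. Those members were Mbp, Mobp, Mal, Cnp, Mag and Mog, with Mobp the largest at 0.78. Without trained 2, edgeR called 0 members, 3 had an unadjusted p under 0.05, beside 4.78% of genes, and the median was -0.16. Every member but Mag then had a negative change, from -0.04 for Cnp to -0.37 for Mal, while Mag was at 0.13. In such a fit the lone trained section is assumed to vary as the others do. Without untrained 1, Cldn11 was at -0.01 and the other 7 members were above 0.

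In the hippocampal layers the summed members were at 1596 CPM in trained 1, 4012 in trained 2, 1705 in untrained 1 and 2116 in untrained 2. Trained 2 was highest and trained 1 lowest. By edgeR 0 members were called, as were 0 of 8629 genes (0%). An unadjusted p under 0.05 was reached by 2 members (Mag and Olig1) and by 4.89% of genes, and DESeq2 called 0 members and 0 genes. The members' median log2 change was 0.52, or 0.17 with marker scores not averaged over neighboring spots, where 2 of the 8 members were below 0. The median was 1.01 without trained 1, where 6 members were called higher beside 0.995% of genes, and -0.34 without trained 2, where 0 were called.

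In the cortex, the 3 layer groups together, the sums were 1612, 4055, 1799 and 1859 CPM in trained 1, trained 2, untrained 1 and untrained 2. There edgeR called 0 members, beside 0.01% of genes. At an unadjusted p under 0.05 there were 4 members (Mobp, Mag, Mog and Cldn11) and 5.45% of genes, and DESeq2 called 0 members. The members' median was 0.59, with 1.07 and 6 members called higher without trained 1, beside 0.417% of genes, and -0.21 with 0 called without trained 2. The mix of layers differed: upper cortex, the lowest in members, gave 64 of the 337 cortical spots of trained 2, against 152 of 290, 88 of 199 and 140 of 315 in trained 1, untrained 1 and untrained 2. Trained 2 was 2.18 times the next section in the pooled cortex, and 1.6, 1.74 and 1.89 times in upper cortex, layer 5 and layer 6. The 1 gene called in the cortex, named after its values were seen, was 2900052N01Rik.

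Of the sums in the 6 comparisons of trained with untrained mice, those of the thalamus lay closest together, at 4228, 5479, 4392 and 4633 CPM for the summed members of trained 1, trained 2, untrained 1 and untrained 2. Trained 2 was 1.18 times the next section there. No member was called by edgeR, beside 0.0436% of genes. At an unadjusted p under 0.05 there was 1 member, Mag, beside 6.49% of genes, and DESeq2 called none. The median log2 change of the members was 0.05. It was 0.16 without trained 1, where 0 members were called beside 0.298% of genes called higher, and -0.09 without trained 2. The 4 genes called, named after their values were seen, were Oxt, Fam219a, 2900052N01Rik and Sst.

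In the hypothalamus the sums were 2675.0, 4617, 3377 and 2817 CPM in trained 1, trained 2, untrained 1 and untrained 2, with trained 1 lowest. By edgeR 0 members were called, beside 0.0131% of genes (Avp alone, named after its values were seen). An unadjusted p under 0.05 was reached by 2 members (Mag and Mog), beside 4.68% of genes, and DESeq2 called 0. The median was 0.24. Without trained 1 it was 0.56 and 1 member was called higher, beside 0.189% of genes, and without trained 2 it was -0.29 with 0 called.

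Of the sums in these 6 comparisons, those of the callosal strip lay farthest apart, at 4774, 23098, 7455 and 10967 CPM in the same order, trained 2 highest and trained 1 lowest. By edgeR 0 members and 0 of 1744 genes were called (0%). An unadjusted p under 0.05 was reached by 0 members and 1.43% of genes, and DESeq2 called 0. The members' median log2 change was 0.63, with 1.32 and 6 members called higher without trained 1, beside 1.4% of genes, and -1.17 with 0 called without trained 2. In that last fit all 8 members were below 0 and 8 had an unadjusted p under 0.05, beside 5.75% of genes. The 6 comparisons share their sections, and the whole section holds the spots of all the others.

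Whether the training effect differs between regions was tested by the region by training terms together, with the section as a block. By edgeR 0 members were called, beside 0.0277% of genes (Npy and Ttr, named after their values were seen). An unadjusted p under 0.05 was reached by 0 members and by 3.42% of genes, and DESeq2 called 0 members. Without trained 1, 6 members were called (Mbp, Mobp, Mal, Cnp, Mag and Cldn11), beside 1.9% of genes. Without trained 2 there was 1, Mbp, at an adjusted p of 0.0112, beside 0.186% of genes.

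The 87 genes of the other lists, which cover the rest of the oligodendrocyte lineage and its neighbors in the tissue, gave 0 calls by edgeR in any of the 6 comparisons of trained with untrained mice. Of them 84 were tested in the whole section, 63 in hippocampal layers, 73 in cortex, 74 in thalamus, 67 in hypothalamus and 37 in the strip. In the whole section, 8 of the 22 other mature oligodendrocyte genes had an unadjusted p under 0.05 and their median log2 change was 0.25. The medians were 0.35 for 5 lipid and metabolite enzymes, 0.31 for 6 junction and adhesion genes, 0.34 for 7 transcription factors, 0.18 for 7 committed or newly formed oligodendrocyte genes and 0.00 for 6 precursor genes. The 1 Schwann cell gene tested was at -0.07, and the medians were -0.01 for astrocytes, -0.07 for microglia, -0.01 for endothelium, -0.19 for blood and -0.08 for neurons.

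In hippocampal layers, where the members' median was 0.52, some lists of other cells also had medians above 0, with 0 of the 63 listed genes tested there called. The medians were 0.83 for the 4 blood genes, 3 of them at an unadjusted p under 0.05, 0.44 for microglia, 0.43 for endothelium, 0.26 for astrocytes and -0.11 for neurons. The blood genes summed to 629.6, 665, 401 and 347 CPM there in trained 1, trained 2, untrained 1 and untrained 2, so both trained sections were above both untrained ones. Microglia genes came to 299, 482, 311 and 319 CPM and endothelial genes to 104, 174, 105 and 112 in that order. In the microglia and endothelial lists trained 2 was highest and trained 1 lowest. Astrocyte genes came to 1125, 1700.3, 1219 and 1095. In the strip the blood median was 1.06, at 1163, 891, 49.4 and 662 CPM in the same order, untrained 1 resting on 1 UMI. The neuron genes came to 7059.9, 2838, 5974 and 5546 CPM in the strip, highest in trained 1 and lowest in trained 2, where the members were lowest and highest. The blood median was -0.59 in the cortex, -0.64 in the thalamus, with 3 of 4 genes at an unadjusted p under 0.05, and 0.29 in the hypothalamus. The most abundant genes of the blood, endothelium and astrocyte lists, named after their values were seen, were Hbb-bs, Ly6c1 and Aldoc, and the part of these cells in the members' changes was not tested.

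Where the members are expressed in the section was described over regions and tested between them, with all 4 sections in 1 fit and the section as a block. The composition of the member UMIs varied little over whole sections. Mbp took 57.1% ± 0.691 (SD, n = 4), from 56.2% to 57.7%. Mobp took 14.1% ± 1.45, with its highest share, 16.1%, in trained 2. Cnp took 8.15%, Mal 5.91%, Mag 4.36%, Cldn11 4.34%, Olig1 3.72% and Mog 2.37%. Thus the sections differed more in the sum than in which members made it up.

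**Figure D2:**
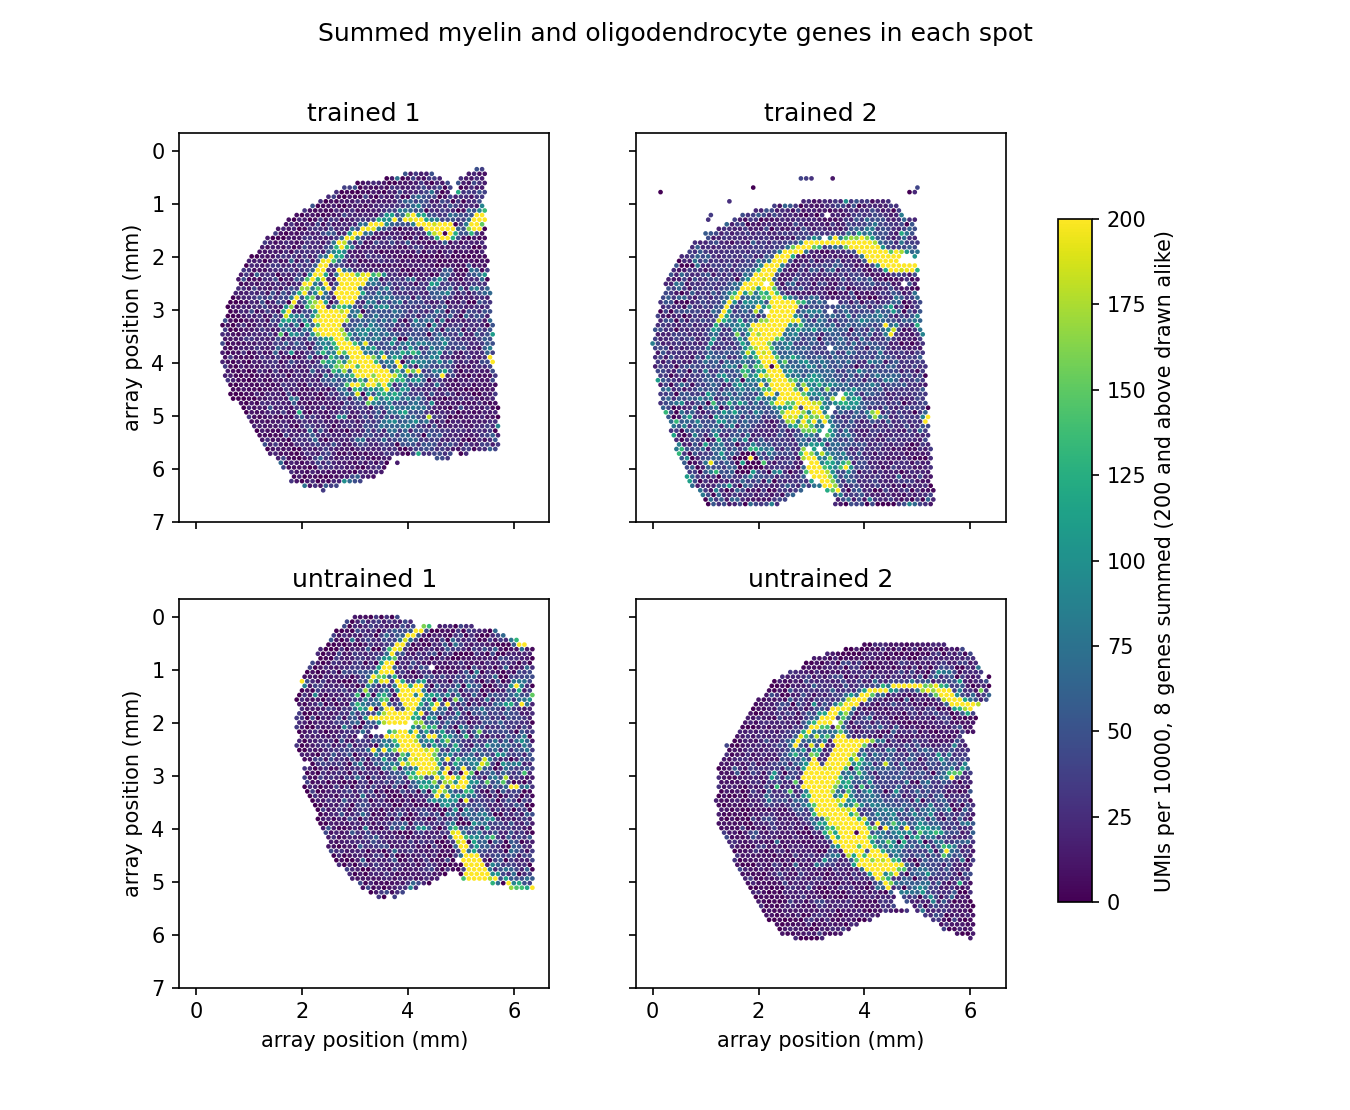
Maps of the 4 sections show each spot at its array position (both axes in mm), coloured by the summed members in UMIs per 10000, with values at or above the top of the scale drawn alike. High spots form bands, and the summed members came to 3334 to 5994 CPM over whole sections.

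The order of the regions is given over the 3 sections other than trained 2, as mean and SD of the summed members in CPM. Upper cortex was lowest at 1417 ± 198, then DG at 1518 ± 228, CA1 at 1969 ± 335, layer 5 at 2062 ± 266 and layer 6 at 2180.1 ± 290. Hypothalamus followed at 2956 ± 371, the striatal group at 4065 ± 528, medial habenula at 4107 ± 392 and thalamus at 4418 ± 204. Choroid plexus at 6215 ± 2113 and the callosal strip at 7732 ± 3106 were the highest regions. The steps between neighbors in this order were larger than both SDs at DG to CA1, layer 6 to hypothalamus and hypothalamus to the striatal group, and in no other pair of neighbors. Spots of the choroid plexus group, like all spots, hold several cells, so its level is not that of choroid plexus cells alone. Which cells gave that level was not tested.

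With trained 2 the means were 1714 ± 617 in upper cortex, 1799 ± 593 in DG, 2717 ± 1521 in CA1, 2547 ± 994 in layer 5 and 2774 ± 1210.4 in layer 6. They were 3371 ± 884 in hypothalamus, 4248 ± 426 in medial habenula, 4683 ± 556 in thalamus and 4743 ± 1423 in the striatal group. Choroid plexus reached 10877 ± 9482 and the strip 11574 ± 8091. Trained 2 was the highest section in 80 of 88 pairs of member and region, and the share over all genes was not counted. In the medial habenula trained 2 was the highest for 4 of the 8 members, the fewest of any region.

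**Figure D3:**
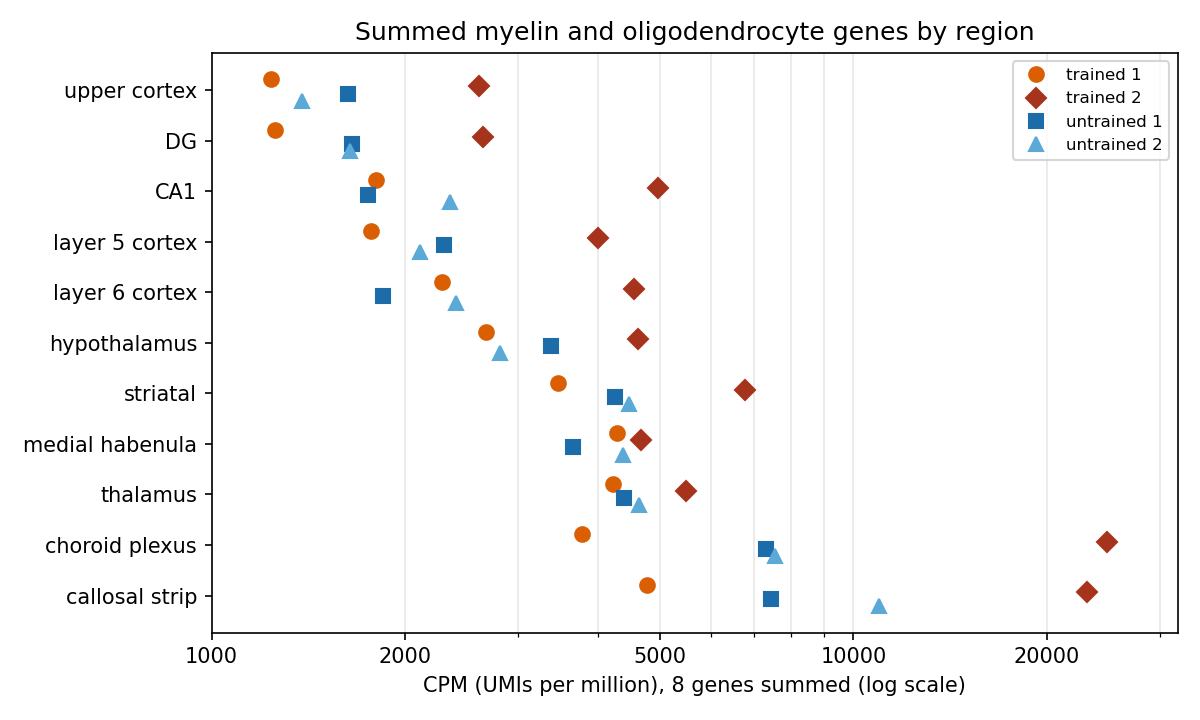
The summed members in CPM (logarithmic axis) are plotted for 11 regions, with 1 point per section in the colour and shape of its legend. They run from upper cortex, at 1239 to 2607 over the 4 sections, to the callosal strip, at 4774 to 23098.

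The callosal strip was compared with the mean of layer 6 and CA1, the regions on either side of it. Its spots were taken by position, so how much fiber tract they held was not measured and may differ between sections. The summed members were at 4774, 23098, 7455 and 10967 CPM in the strips of trained 1, trained 2, untrained 1 and untrained 2. In spots rich in other oligodendrocyte genes they were at 17389, 26512, 20965 and 22592, in the same order. Mbp was at 2893 CPM in the strip of trained 1, 12968 in trained 2, 4295 in untrained 1 and 6373 in untrained 2. In layer 6 it was at 1469, 2615, 1115 and 1449.7 in that order, and in CA1 at 1059.6, 2779, 1049.4 and 1378. The strip was above both neighbors in each of the 4 sections, for Mbp and for each other member. All 8 members were called higher in the strip, beside 3.43% of genes, and DESeq2 called all 8 too. The median log2 change was 2.15, against -0.04 over all genes.

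By role, the strip exceeded its neighbors by a log2 change of 1.98 for Mbp (adjusted p = 1.29e-16), 2.12 for Mobp and 2.38 for Mal. Cnp was higher by 2.08, Mag by 2.18, Mog by 2.62 (the largest, adjusted p = 2.45e-13) and Cldn11 by 2.21. Olig1 was at 101, 581, 247 and 207 CPM in the strips of trained 1, trained 2, untrained 1 and untrained 2, the value for untrained 1 resting on 5 UMIs. Its log2 change was the smallest at 1.54 (adjusted p = 3.62e-07). Without trained 2 the order changed, with Mog at 1.90, below Mal at 2.16 and Mag and Cldn11 at 1.99. In that fit 7 members were called higher and Olig1 was not, at 0.89 (adjusted p = 0.192). All genes called numbered 392 with that section and 94 without it.

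The thalamus was compared with the mean of the 3 cortical groups. Mbp was at 2459 CPM in the thalamus of trained 1, 3115 in trained 2, 2519.5 in untrained 1 and 2694 in untrained 2. In the cortex it was at 976, 2275, 1049 and 1056 in the same order. In each section the thalamus was above the cortex, and the thalamus of every section was above the cortex of every section. All 8 members were called higher in thalamus by edgeR and by DESeq2, beside 16.9% of genes, and each was higher in 4 of 4 sections. The log2 changes were 1.16 for Mbp (adjusted p = 6.47e-11), 1.25 for Mobp, 1.03 for Mal, 1.07 for Cnp, 1.22 for Mag, 1.07 for Mog, 0.91 for Cldn11 and 0.90 for Olig1. Their median was 1.07, against 0.00 over all genes, and it was 1.35 without trained 2.

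The other oligodendrocyte genes were called in these comparisons as follows. In thalamus minus cortex, 22 of 22 other mature oligodendrocyte genes, 4 of 4 tested enzymes, 4 of 5 tested junction genes and 4 of 4 tested transcription factors were called higher. Of the precursor genes tested, 1 of 3 was (Lhfpl3, named after its values were seen). In the strip the counts were 22 of 22, 4 of 4, 2 of 5 and 4 of 4, with 0 of 3 precursor genes. Their precursor count at an unadjusted p under 0.05 was 1. Of the 3 committed or newly formed oligodendrocyte genes tested, 2 were called higher in thalamus and 1 in the strip. Among the 7 astrocyte genes, 5 were called higher in thalamus and 1 in the strip.

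By cortical depth, layer 6 was compared with the upper layers. Mbp was at 1469, 2615, 1115 and 1449.7 CPM in layer 6 of trained 1, trained 2, untrained 1 and untrained 2, and at 712, 1363, 904 and 726 in upper cortex. Layer 6 was higher in 4 of 4 sections. Mbp was the 1 member called, higher by 0.82 (adjusted p = 0.00509), beside 0.927% of genes called higher. Without untrained 2 it was at 0.78 with an adjusted p of 0.154 and no member was called. DESeq2 called none, with an adjusted p of 0.0695 for Mbp. Members called numbered 0 with no block of section, 2 with the stricter marker score (0.5) and 5 with marker scores not averaged. The shares of all genes called higher under these settings were 0.609%, 1.23% and 0.785%. Of the 8 neuron genes 1 was called lower and 0 higher (median -0.13, 3 at an unadjusted p under 0.05). The blood median was -0.54, with 0 genes called. The part of these lists in the change of Mbp was not tested.

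For Olig1 the cortical depths did not separate. It was at 65.4, 142, 106 and 76.3 CPM in layer 6 and at 78.8, 131, 88.9 and 104 in upper cortex, in the order trained 1, trained 2, untrained 1 and untrained 2. Layer 6 was higher in 2 sections and lower in 2, and the log2 change was -0.08 (adjusted p = 0.962). The sign changed without untrained 2, to 0.04. The 6 remaining members had changes from 0.45 to 0.69 that were not called. Olig1 made up 6.09% ± 1.1 (SD, n = 4) of member UMIs in upper cortex, against 3.72% ± 0.33 over whole sections.

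Within the diencephalon the hypothalamus was compared with the thalamus. Mobp was at 313, 792, 424 and 350.4 CPM in the hypothalamus of trained 1, trained 2, untrained 1 and untrained 2, and at 532, 878, 658 and 676 in the thalamus. The hypothalamus was lower in 4 of 4 sections. By edgeR 5 members were called lower, beside 15.6% of genes: Mobp by -0.66 (adjusted p = 0.00191), Mbp by -0.58, Mag by -0.57, Mog by -0.54 and Mal by -0.48. Mal was lower in trained 1 and untrained 2 but higher in trained 2 and untrained 1. All 8 changes were negative. The count lower was 4 without trained 1, beside 11.9% of genes, 7 without trained 2, beside 11.7%, and 0 without untrained 2, beside 11.8%. DESeq2 called 1, Mobp, beside 13.3%. Members called numbered 3 with the stricter marker score (0.5) and 0 with no block of section, beside 16.4% and 11.6% of genes. Of the 8 neuron genes 5 were called lower and 1 higher, with a median of -0.77, against -0.51 for the members. They summed to 4007, 3548, 4218 and 3371 CPM in the hypothalamus of trained 1, trained 2, untrained 1 and untrained 2 and to 5878, 6102, 6270.2 and 5881 in the thalamus, with Snap25, named after its values were seen, the most abundant. Of 2 endothelial genes tested 1 was called lower. Of the 7 astrocyte genes 2 were called higher and 0 lower (median 0.05). Among the oligodendrocyte lists, 6 of 22 other mature genes were called lower, and 1 of 4 tested transcription factors was called higher. The part of these lists in the members' change was not tested.

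Within the hippocampus, DG was compared with CA1. Mobp was at 137.5, 344, 206 and 197 CPM in DG of trained 1, trained 2, untrained 1 and untrained 2 and at 191, 814, 281 and 263 in CA1, lower in DG in 4 of 4 sections. Mal was at 54.2, 125, 72.0 and 139 in DG and at 159, 313, 57.8 and 168 in CA1, lower in 3 sections and higher in untrained 1. These 2 members were called lower, Mobp by -0.79 (adjusted p = 0.0296) and Mal by -0.87 (adjusted p = 0.0485), beside 4.25% of genes, and DESeq2 called 0. Without trained 2 neither was called, Mobp at -0.50 (adjusted p = 0.213) and Mal at -0.62 (adjusted p = 0.235), and Mbp was, at -0.47. Mal was not called without trained 1, nor Mobp without untrained 2. Members called numbered 0 with the stricter marker score (0.5), 0 with no block of section and 1 with marker scores not averaged. The shares of all genes called lower under these settings were 4.84%, 3.11% and 3.44%. All 8 changes were negative, with a median of -0.55. Of the 8 neuron genes 2 were called lower (median -0.38), and they summed to 4346, 3514, 4666 and 4421 CPM in DG and to 5607, 4519, 5850.3 and 5838 in CA1, in the order of sections above. Of the 7 astrocyte genes 2 were called higher (median 0.72, 5 at an unadjusted p under 0.05), at 1308, 2402, 1469.7 and 1297 CPM in DG and 1023, 1510.0, 1082 and 914 in CA1. Their part in the members' change was not tested.

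No member was called between hippocampal layers (CA1 and DG) and cortex by edgeR, although 21.9% of genes were. At an unadjusted p under 0.05 there were 0 members, beside 31.4% of genes, and DESeq2 called 0. The members' log2 changes ran from -0.24 for Mog to 0.15 for Cnp, with a median of -0.01. CA3 minus CA1, over 3 sections, gave 0 members by edgeR, beside 3.63% of genes. There 0 members and 12.6% of genes had an unadjusted p under 0.05, DESeq2 called 0, and the median was -0.09, or 0.17 without trained 2. The comparisons between regions come from the same sections and share CA1, layer 6, thalamus or the cortical groups.

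Distance from a layer gave a finer view, as a description without a test. From upper cortex inwards, the summed members of trained 1 went from 1239 CPM in the layer itself to 1769 in the first 200 µm, 3427 at 400 to 600 µm and 5601 at 1200 to 1400 µm, the highest band out to 2000 µm. In trained 2 the highest band was the same, at 10200.3. Untrained 1 reached its highest level, 7676, at 800 to 1000 µm, and untrained 2 reached 5985 at 1000 to 1200 µm. In each section the layer itself was the lowest band and the highest band lay between 800 and 1400 µm away.

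Around CA1 the levels stepped up within a spot or so of the layer. The summed members were at 1801, 4962, 1752 and 2354 CPM in CA1 of trained 1, trained 2, untrained 1 and untrained 2, and at 3384, 12461, 3174 and 5506 in the next 100 µm. From 200 to 300 µm they were at 2594, 8632, 2567 and 3899. All 4 sections thus had a local high next to CA1, with lower values at 200 to 300 µm. The highest band out to 1200 µm lay within 200 µm of CA1 in trained 2 and untrained 2 and farther off in trained 1 and untrained 1.

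**Figure D4:**
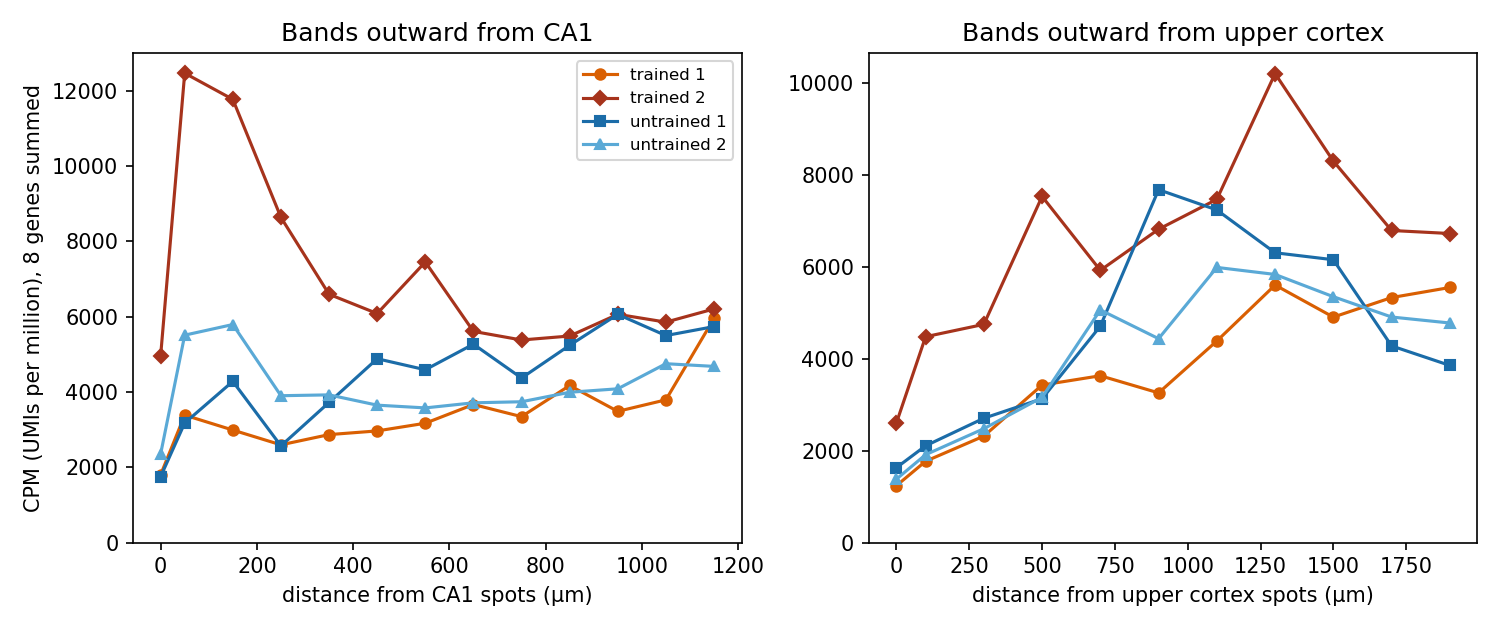
The summed members in CPM (vertical axis) are plotted against distance in µm from the CA1 layer and from upper cortex, with 1 line per section. From upper cortex each line starts at its lowest level, 1239 to 2607, and peaks between 800 and 1400 µm.

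Over the spots of whole sections the members went together. Pearson's r, on the log of 1 plus UMIs per 10000, is a description: spots share a library and differ in depth, and sparse counts lower r. All 28 pairs of members had r above 0 in each section, with a median of 0.233 over 2864 spots of trained 1, 0.364 over 3055 of trained 2, 0.188 over 2359 of untrained 1 and 0.296 over 2661 of untrained 2. The shallowest section, untrained 1, had the lowest median and the deepest, trained 2, the highest. Mbp and Mobp made the closest pair, with a mean r of 0.458 over the 4 sections. Mog and Olig1 were the least alike at 0.137, and all 7 pairs with Olig1 came below the 21 pairs without it.

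Within single regions the members went together less. In hippocampal layers the median r was 0.1, 0.428, 0.033 and 0.202 in trained 1, trained 2, untrained 1 and untrained 2, with 26, 28, 16 and 28 of the 28 pairs above 0. In the cortex it was 0.111, 0.28, 0.052 and 0.092, with 27, 28, 24 and 23 pairs above 0, and in the thalamus 0.12, 0.158, 0.068 and 0.103, with 28, 28, 22 and 28. Each was below the whole-section median of its section, except in the hippocampal layers of trained 2.

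The spot levels of 1209 genes outside the list, those with at least 500 UMIs in each section, were compared with the summed members. Among the 15 most alike were, by mean r over the 4 sections, Fth1 at 0.462, Trf at 0.391, Apod, Plekhb1, Qdpr, Car2, Cryab, Sept4, Csrp1, Dbndd2, Scd2, Enpp2, Qk and, last, Tubb4a at 0.178. The median over the 1209 genes was -0.041, and Nrgn, named after its values were seen, had the lowest r at -0.274.

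The summed lists differed in how far they followed the members over whole sections. The 22 other mature oligodendrocyte genes had an r with the summed members of 0.57, 0.621, 0.442 and 0.647 in trained 1, trained 2, untrained 1 and untrained 2. The 6 precursor genes had -0.02, 0.051, -0.026 and 0.006. Of the 4 Schwann cell genes, Pmp2 had 0 UMIs in all 4 sections and Egr2, which neurons also express, was the most abundant with 49, 81, 4 and 78 UMIs, both named after their values were seen. These counts are too few to compare with the members. The neuron list had -0.242, -0.149, -0.151 and -0.235. The 7 committed or newly formed oligodendrocyte genes lay between, at 0.2, 0.359, 0.129 and 0.263.

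The members are scattered over the genome. In GENCODE vM21 on GRCm38 they lie on 8 chromosomes, and Mbp is the longest at 110492 bases with 16 annotated transcripts. Mobp lies at chr9:120149707-120181484 (plus), Mal at chr2:127633226-127656695 (minus), Cnp at chr11:100574904-100591729 (plus) and Mag at chr7:30899176-30914873 (minus). Mog lies at chr17:37010743-37023398 (minus), Cldn11 at chr3:31149920-31164324 (plus) and Olig1, the shortest at 2162 bases, at chr16:91269772-91271933 (plus). Counts are per gene, so the splice forms of Mbp and the others are not told apart.

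Since the members had r above 0 over whole sections, their promoters were searched for shared letters. The RefSeq promoter table (GRCm38.p6) held 6 of the 8 members with 8 promoters, 3 of them for Mag; Mbp and Olig1 had none. The 250 bases before each start were searched on both strands, in all 32851 promoters. ACAAAG, read as CTTTGT on the other strand, is the core bound by Sox factors; it was in Mobp, Mag and Cnp, and in 16.5% of all promoters. CTGGCAC, a form of the motif bound by Myrf, was in Mag and Cnp, and in 4.2% of all. CAGCTG and CAGATG, forms of the E-box, were in no member and in 13.0% and 14.4% of all, and TATAAA was in no member and in 12.4%. A match is a description of the letters. Mobp held ACAAAG 6 times, and it is the one promoter of the 32851 with that many. Of the 8 promoters, 4 held ACAAAG and 3 held CTGGCAC, since both motifs fell in 2 overlapping promoters of Mag. For each of the 3 genes 1 promoter is printed 5′ to 3′ on the strand of the gene, without bases of annotated exons, and capitals mark ACAAAG and CTGGCAC on either strand. Mobp is chr9:120149492-120149706 (plus), Mag, the farthest upstream of its 3, is chr7:30914923-30915172 (minus) and Cnp is chr11:100574689-100574903 (plus).
Mobp: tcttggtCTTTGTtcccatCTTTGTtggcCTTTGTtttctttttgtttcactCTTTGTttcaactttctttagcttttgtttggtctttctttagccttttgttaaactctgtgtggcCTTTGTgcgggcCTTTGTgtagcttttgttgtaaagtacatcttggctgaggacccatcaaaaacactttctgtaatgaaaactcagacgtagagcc
Mag: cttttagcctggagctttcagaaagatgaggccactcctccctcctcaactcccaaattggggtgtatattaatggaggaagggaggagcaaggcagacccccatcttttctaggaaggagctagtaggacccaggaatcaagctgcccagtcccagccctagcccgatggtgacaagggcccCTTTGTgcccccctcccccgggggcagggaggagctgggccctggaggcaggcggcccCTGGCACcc
Cnp: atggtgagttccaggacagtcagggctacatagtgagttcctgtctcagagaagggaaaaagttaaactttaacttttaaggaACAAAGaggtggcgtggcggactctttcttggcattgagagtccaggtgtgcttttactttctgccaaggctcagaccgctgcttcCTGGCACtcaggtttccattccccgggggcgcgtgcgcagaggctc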

How the data were processed

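The authors deposited raw UMI counts per gene and spot for each section, with no normalization, and the array position of each spot. The sources disagree, and this was not settled: the study's methods name Space Ranger 2.0.0 and mm10, the header of the deposited counts spaceranger 1.2.2, and the labels Cell Ranger 8 and STAR with mm39 and GRCm39. The gene table is that of an mm10 reference, and positions were read from GENCODE vM21. The section, 1 mouse, was the replicate, and spots were not.

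Spots took the region of the marker list (13 lists) with the highest score of at least 0.4, each spot's own score weighing 0.5 and its neighbors the rest. The strip reached 700 µm. Counts were summed per section, or per region and section with at least 20 spots, and tested in R 4.3.3 by the quasi-likelihood F-test of edgeR 4.0.16 after filterByExpr and TMM scaling; DESeq2 1.42.0 was an alternative. Python 3.11.15, numpy 2.4.6, pandas 2.3.3, scipy 1.17.1 and matplotlib 3.10.9 did the rest. The tests were run on simulated counts with known changes. Every simulated section had the same spread, so a section apart from the rest, such as trained 2, was not covered.

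The members and lists were chosen with earlier results of these data known. Genes named are the 8 members, any of the 87 listed genes called between trained and untrained mice, and the 15 genes outside the members most like their sum over spots, of which 1 is not reported here; the report marks the others as named after their values were seen. Alternatives were no filter on low counts, sums thinned to the smallest total, replicate number or no section as a block, spots rich in other oligodendrocyte genes left out, Bc1, Ttr, Gm42418 and the mitochondrial genes left out, marker scores not averaged or stricter (0.5), and each section left out. Those for the training effect by region were chosen after seeing the data. Single-nucleus data and section images were not used, nor was the study's rank-sum test over spots, which takes spots as replicates.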

Additional observations from a re-analysis of the deposited data

How the results depend on the processing

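Between trained and untrained whole sections, members kept their direction and their side of the threshold in 46 of 48 cases under settings other than leaving out a section, and in 18 of 32 with a section left out, where 8 reversed and 6 were newly called. Between regions the counts were 153 of 192 and 144 of 160, over comparisons other than hippocampal layers minus cortex and CA3 minus CA1, whose members were not followed singly.

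With no filter on low counts, members called numbered 1 in the whole section, beside 1.05% of genes called in either direction. They numbered 2 in hippocampal layers, beside 0.0807% of genes, and 3 in layer 6 minus upper cortex, beside 0.93%. With the replicate number as a block, 1 was called in hippocampal layers, beside 0.151% of genes, and Cldn11 was at -0.01 in the whole section. As a check of this pairing, r between sections with the same number, over genes and after each group's mean was taken off, was 0.00529 to 0.0905 in the 6 comparisons. DESeq2 called 0 in layer 6 minus upper cortex, 0 in DG minus CA1 and 1 in hypothalamus minus thalamus. The shares of all genes called there were 1.18%, 7.46% and 26.3%. With no block of section, members called there numbered 0, 0 and 0, beside 1.2%, 5.59% and 22.3% of genes. Olig1 in layer 6 was then at 0.03. With marker scores not averaged, layer 6 gave 5, hippocampal layers minus cortex 1 and DG minus CA1 1. The shares of all genes called there were 1.4%, 21.3% and 6.64%. Olig1 in layer 6 was then at 0.16 and Mog in DG at 0.13. The stricter score gave 2 in layer 6, 0 in DG and 3 in hypothalamus, beside 2.57%, 9.35% and 32.3% of genes. Olig1 in layer 6 was then at 0.05. The cause was not tested.

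With each section left out in turn, members called between trained and untrained ran from 0 to 6 in the whole section, 0 to 6 in hippocampal layers, 0 to 6 in cortex, 0 to 1 in hypothalamus and 0 to 6 in the strip. They ran from 0 to 1 in layer 6 minus upper cortex, 1 to 2 in DG minus CA1, 0 to 7 in hypothalamus minus thalamus and 0 to 6 in the training effect by region. The whole-section log2 change ran from -0.16 to 0.54 for Mbp, -0.31 to 0.78 for Mobp, -0.17 to 0.71 for Mog, -0.04 to 0.45 for Cnp, -0.37 to 0.52 for Mal, -0.35 to 0.30 for Cldn11 and -0.06 to 0.39 for Olig1. For Olig1 in layer 6 it ran from -0.19 to 0.04. Between trained and untrained mice, and in the training effect by region, the highest counts came without trained 1. Between regions the lowest count came without untrained 2 in layer 6 and in hypothalamus minus thalamus, where the highest came without trained 2. In DG minus CA1 it was 1 without trained 1, trained 2 or untrained 2. The whole-section signs changed without trained 2, and for Cldn11 also without untrained 1, and Olig1 in layer 6 changed without untrained 2. A group left with 1 section is assumed to vary as the others do. The cause was not tested.

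With 2 mice a group, leaving out 1 section changed which members were called in each comparison of trained with untrained mice but the thalamus. Depth limits the smaller regions: in DG an exact 95% interval for Mag, on 2 UMIs, reached 261% above the value. Thinned sums left Mog and Olig1 untested in the strip, and with scores not averaged the strip had 18 spots in untrained 1, so its comparisons were not run. The position of each section along the brain was not measured.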
